A study of Mus musculus with 50 samples.

Results

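The genes described here encode the proteins of the cytosolic ribosome, the particle that translates messenger RNA in the cytoplasm. They were chosen by name from the authors' deposited table, as every row whose symbol starts with Rpl or Rps followed by a digit, an a or a p, leaving out the kinase genes whose symbols start with Rps6k. The rule matched 88 of 12819 rows. Of these 77 are core ribosomal protein genes, 46 of the large and 31 of the small subunit. A further 8 are paralogs, 2 carry pseudogene names, and 1, Rps19bp1, encodes a protein that binds Rps19 and is no ribosomal protein.

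The cells were V6.5 mouse embryonic stem cells, a line of mixed C57Bl/6 and 129 origin, whose own Cdk12 gene is knocked out and replaced by a doxycycline (Dox) inducible, Flag- and HA-tagged Cdk12 transgene. Cdk12 is a kinase that phosphorylates the long tail of RNA polymerase II. Both knockout lines, clones 28 and 36, were kept in 1 µg/mL Dox (0 h) or harvested 24 or 48 h after Dox was withdrawn, each clone in duplicate, which gives 4 polyA-selected RNA libraries per time. Parental floxed cells of clone 21 without a transgene, pretreated with Dox for 17 days, gave 2 libraries per time as a control for Dox itself, and the remaining 32 libraries of the series, all of chromatin, are not analysed here. Each knockout line is a single clone, and the values used here do not separate the clones.

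The table holds comparisons of 24 h and of 48 h with 0 h and no value per library, so no replicate values, SD or depth can be set beside a gene. Changes are given as log2 of a later time over 0 h, which is the deposited value with its sign turned. The header leaves the direction open to reading, and it was taken from how the column names order the times and from Cdk12 being lower without Dox. Under the opposite reading all rises here would be falls and all falls rises. In bulk RNA, fewer cells of a kind and less RNA per cell cannot be told apart. In the authors' deposited table Cdk12 itself had changes of -0.61 and -0.61, with posterior probabilities of a change of 0.0704 and 0.266, below the threshold used. Genes count as called here from a posterior probability of differential expression of 0.95 upward. The same 0 h libraries serve both comparisons, so the 2 times are not independent. Of 8 embryonic stem cell markers, Pou5f1, Nanog and Sox2 among them, all 8 had a row and none was called at either time, but levels cannot be checked from changes. Over all rows 1.13% were called at 24 h and 7.69% at 48 h, so the absence of calls among 8 genes is no result about them.

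A mature ribosome joins a small subunit, which reads the messenger RNA, to a large subunit, which forms the peptide bond. Most of the proteins are needed in equal amounts with the ribosomal RNAs, and surplus copies are degraded. Most mammalian ribosomal protein messages start with a terminal oligopyrimidine (TOP) tract, a run of C and T bases at the very start of the transcript through which mTOR signalling and Larp1 control their translation. The genes are short, strongly transcribed in embryonic stem cells, and many carry small nucleolar RNA (snoRNA) genes in their introns.

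At 24 h without Dox most ribosomal protein genes lay slightly below their 0 h level, and no single gene was called. Of the 88 members 73 were lower and 15 higher, which is 83.0% lower against 47.8% of all rows. The median change was -0.12, or 92.2% of the 0 h level, against 0.01 over all rows, and the interquartile range ran from -0.19 to -0.04. The members share the same libraries and are not replicates, and the shift of the group was not tested at either time. Of the 87 members with a posterior probability 0 were called, where 1.13% of all rows were called, 0.679% as fallen and 0.45% as risen. By the authors' second statistic, an adjusted p for which no header names a test or the groups, 0 of 88 members passed at 0.05, against 0.167% of all rows, and each of the 88 values was 1. The table holds no unadjusted p.

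By 48 h the members were spread around a median still below 0, and 2 genes of the large subunit had fallen. Of the 88 members 54 were lower than at 0 h and 34 higher, which is 61.4% lower against 48.6% of all rows. The median was -0.08, or 94.6% of the 0 h level, against 0.01 over all rows. Of the 87 members with a posterior probability 2 were called, both as fallen. That is 2.30% of them, below the 7.69% of all rows called at this time, of which 3.97% fell and 3.72% rose. The second statistic called 0 members, against 3.71% of all rows, and the lowest value among members was 0.0657, that of Rpl36a in the authors' deposited table. No member carried the authors' mark for a Dox effect at either time. The mark is rare, with 3 of all 12819 rows carrying it at 24 h and 149 at 48 h. Its absence among the members is therefore no result about them.

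Markers of other cell types were read beside these values, and their part in them was not tested. Of 4 endoderm markers 4 were above 0 at 24 h and 4 at 48 h, with medians of 0.53 and 0.68. Sox7 rose at 24 h by 0.55 in the authors' deposited table, without passing the second statistic. At 48 h Sox7 stood at 0.28 there, with a posterior probability of 3.27e-22, and was not called. Gata4 and Gata6 rose at 48 h by 0.85 and 0.79 in the authors' deposited table. Gata4 passed the second statistic, at 0.0278, and Gata6 did not, at 0.102. The 4 trophoblast markers had medians of 0.30 and 0.71 with 0 called, and Cdx2 stood highest at 48 h, at 1.10 in the authors' deposited table. Of 2 measured fibroblast markers Col1a1 rose by 0.89 at 48 h in the authors' deposited table and carries the Dox mark. Of 2 measured neural markers both were below 0 at 48 h, with 0 called. Embryonic stem cell markers had a median of 0.10 at 24 h and 0.07 at 48 h. At 48 h 4 of them were below 0 and 4 above, from Zfp42 at -0.46 to Sox2 at 0.39 in the authors' deposited table. Over all rows 1.13% were called at 24 h and 7.69% at 48 h, so 0 called in marker lists this short is no result about them.

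**Figure D1:**
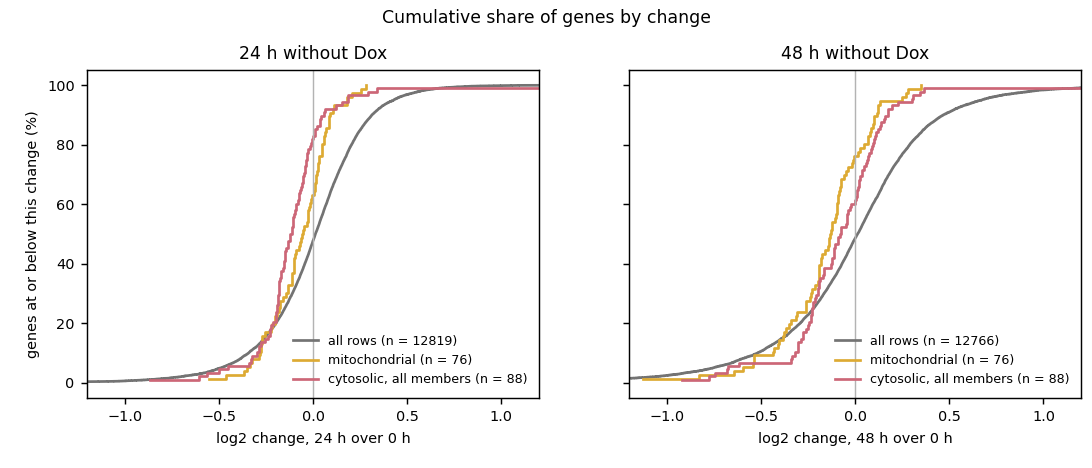
Cumulative share of genes (vertical axis, percent) at or below a log2 change over 0 h (horizontal axis, shown from -1.2 to 1.2) at 24 h (left) and 48 h (right), for all rows in grey, mitochondrial ribosomal protein genes in yellow and the 88 cytosolic members in red. At 24 h the red curve has reached 83.0% at a change of 0, where the grey curve stands at 47.8%, and at 48 h 61.4% against 48.6%.

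Member changes were small. At 24 h 81.8% of the members lay within 0.25 of 0 on the log2 scale, against 69.2% of all rows, and at 48 h 76.1% against 53.9%. Changes beyond 0.5 were seen in 5 members at 24 h and 7 at 48 h, which is 5.68% and 7.95% of them, against 8.09% and 19.7% of all rows. The interquartile range of the change was 0.16 for members and 0.32 for all rows at 24 h, and 0.29 and 0.45 at 48 h. The table gives no expression level, so a comparison with other genes of the same level could not be made.

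At 24 h the 46 core genes of the large subunit had a median of -0.11, with 39 lower and 7 higher, and the 31 core genes of the small subunit a median of -0.12, with 27 lower and 4 higher. At 48 h the large subunit median was -0.10, with 30 lower and 16 higher, and the small subunit median -0.04, with 18 lower and 13 higher. Over all members by name, 54 of the large and 34 of the small subunit, the medians were -0.12 and -0.12 at 24 h and -0.11 and -0.03 at 48 h. Genes are not replicates and no test was made of this difference. Both called genes were of the large subunit, 2 of 45 with a posterior probability, and 0 of 31 genes of the small subunit were called. The 2 of 45 are 4.44%, near the 3.97% of all rows called as fallen at 48 h, so nothing is read from this split.

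**Figure D2:**
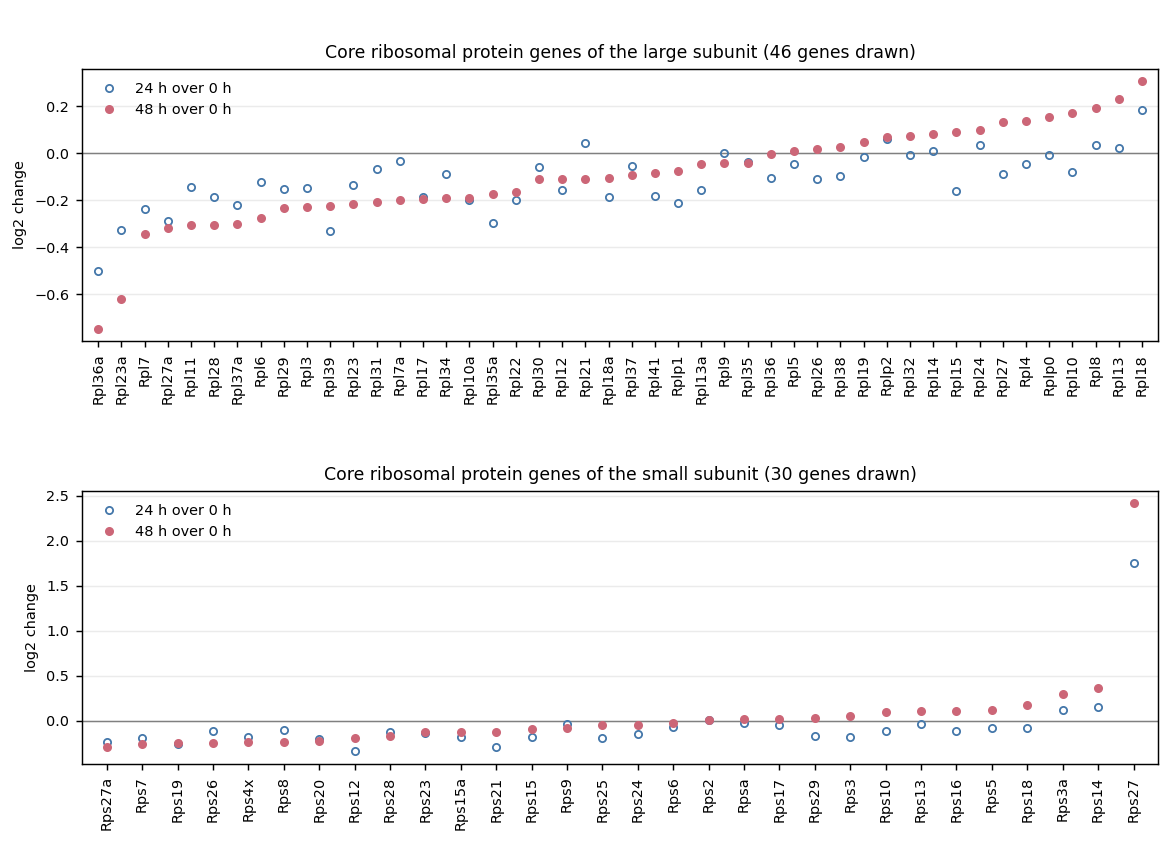
Log2 change over 0 h (vertical axis) of core ribosomal protein genes of the large (upper) and small (lower) subunit, ordered by their 48 h values, with open blue circles for 24 h and filled red circles for 48 h. The vertical scales of the panels differ, and 1 gene of the small subunit is not drawn. Rpl36a and Rpl23a stand lowest in the upper panel and Rps27, at 1.75 and 2.42, far above all others in the lower one.

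Rpl23a and Rpl36a were the called genes. Rpl23a encodes a protein at the mouth of the tunnel through which the new peptide leaves the large subunit. Its log2 change went from -0.33 to -0.62 between the times in the authors' deposited table, so that 79.7% and 65.1% of the 0 h level were left. Its posterior probabilities were 0.745 and 1.00 there, and its second statistic at 48 h was 0.15 in the authors' deposited table, which does not pass. RefSeq names 14 pseudogenes after it, copies whose reads the authors' counting could have shared with it, which was not tested. Such copies are common, as 62 of 77 core genes have at least 1. Rpl31 and Rps12, which were not called, have 24 each. Inside Rpl23a lie 3 snoRNA genes.

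Rpl36a, an X-linked gene whose protein sits at the exit site of the large subunit, fell further. It stood at -0.50 at 24 h, with no posterior probability, and at -0.75 at 48 h with one of 0.987, in the authors' deposited table. At 48 h 59.6% of its 0 h level was left. A fall at least as large was seen in 665 other rows at 48 h, and of the 664 of these with a posterior probability 312 were called. The second statistic of Rpl36a did not pass at either time.

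Rps27 changed most among the members, upward, and was not called. The gene encodes a zinc finger protein of the small subunit. It had a 24 h change of 1.75 and a 48 h change of 2.42 in the authors' deposited table, which is 3.37-fold and 5.34-fold the 0 h level. Its posterior probabilities were only 0.0475 and 0.243 in the authors' deposited table, and its second statistic was 1 and 0.493. By size of rise its rank among all rows with a change was 4 at 24 h and 3 at 48 h. The 2 other rows with as large a rise at 48 h included 1 with a posterior probability, which was called, whereas of 3 such rows at 24 h 2 had a posterior probability and 0 were called. The values per library that would show whether 1 clone or library carries this rise are not in the table. The gene is annotated over 982 bases, the shortest span of the 77 core genes, and RefSeq names 2 pseudogenes after it.

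**Figure D3:**
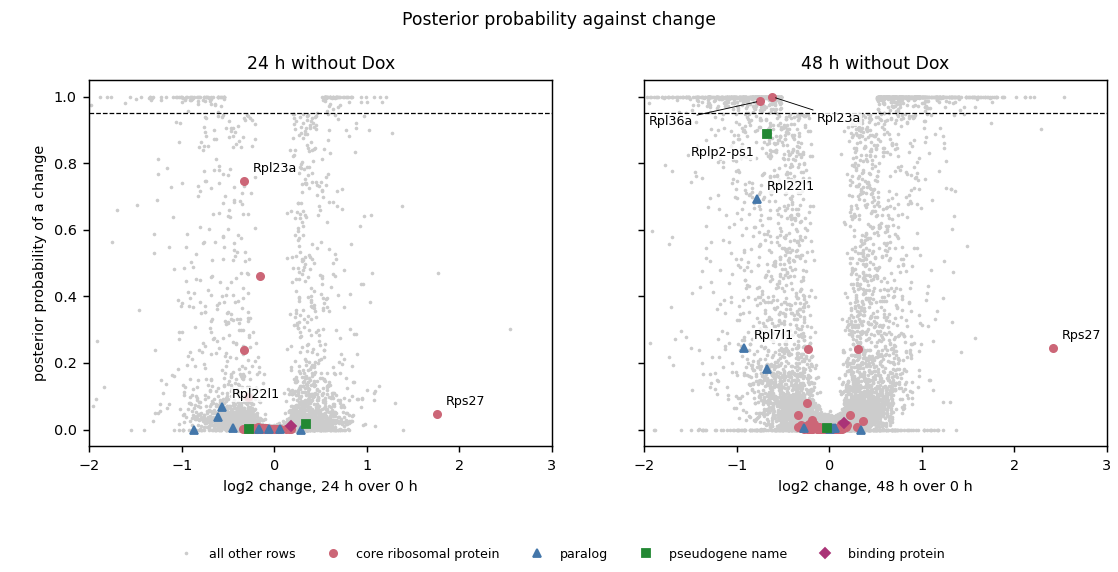
Authors' posterior probability of a change (vertical axis) against log2 change over 0 h (horizontal axis, shown from -2 to 3) at 24 h (left) and 48 h (right), with members coloured by kind, all other rows in grey and the call threshold of 0.95 dashed. Rows without a posterior probability are not drawn. Rpl23a and Rpl36a lie above the line at 48 h, and Rps27 lies far right at 0.0475 and 0.243.

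The other core genes showed small changes and were not called. Toward the low end at 48 h, Rpl7 stood at -0.34, Rpl27a at -0.32, Rpl11 at -0.31, Rpl28 at -0.30 and Rpl37a at -0.30 in the authors' deposited table. Rpl28 had no posterior probability at 48 h there, and its second statistic was 0.717. At 24 h the lowest after Rpl36a were Rps12 at -0.34, Rpl39 at -0.33, Rpl23a at -0.33, Rpl35a at -0.30 and Rpl27a at -0.29 in the authors' deposited table. Rpl39 and Rps12 were nearer to 0 at 48 h, at -0.22 and -0.19 in the authors' deposited table, while Rpl7 was further from it than at 24 h, when it stood at -0.24.

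On the high side after Rps27 came Rps14, whose loss in human blood cells marks the 5q- syndrome. It had a 24 h change of 0.15 and a 48 h change of 0.37 in the authors' deposited table. Rpl18 stood at 0.18 and 0.31, Rps3a at 0.12 and 0.30 and Rpl13 at 0.02 and 0.23 in the authors' deposited table. Rpl8, at the peptidyl transferase centre, stood at 0.04 and 0.19, and Rps18 went from -0.08 to 0.18, in the authors' deposited table. Of these, Rpl18 had the highest posterior probability at 48 h, 0.243 in the authors' deposited table.

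Some members have known roles outside translation or at its regulated steps, and none of those described next was called. Rpl5 and Rpl11 form a particle with the 5S RNA that binds Mdm2, the ubiquitin ligase for p53, when ribosome assembly fails. Rpl5 stood at -0.05 and 0.01 and Rpl11 at -0.14 and -0.31 in the authors' deposited table, while Mdm2 itself rose by 1.22 at 48 h and carries the authors' Dox mark. Rps6, the substrate of the S6 kinases, had changes of -0.07 and -0.02 in the authors' deposited table. Rpsa, also known as the laminin receptor, stood at -0.03 and 0.02 there, and Rps27a, which encodes a ubiquitin fused to a ribosomal protein, at -0.23 and -0.29 in the authors' deposited table.

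The acidic stalk, which recruits elongation factors to the large subunit, is built on Rplp0 by Rplp1 and Rplp2. Rplp0 had a 24 h change of -0.01 and a 48 h change of 0.15 in the authors' deposited table. The authors' deposited table has Rplp1 at -0.21 and -0.07 and Rplp2 at 0.06 and 0.07. None of the 3 was called.

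The step from 24 h to 48 h compares the later times with each other, since the 0 h libraries cancel in the difference. The log2 difference of 48 h over 24 h was above 0 for 21 of 31 core genes of the small subunit and 26 of 46 of the large one, with medians of 0.07 and 0.04 against -0.01 over all rows. Rps27 showed the largest step up among core genes, 0.66, followed by Rpl10 at 0.25, Rps18 at 0.25, Rpl15 at 0.25 and Rps3 at 0.23. The largest step down was that of Rpl23a, -0.29, and that of Rpl36a was -0.25. This step was not tested.

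The start of each transcript was read from RefSeq windows on GRCm38.p6, which hold 250 bases before and 50 after the annotated start and matched 64 of 88 members and 56 of 77 core genes. A run of at least 8 pyrimidines on the gene strand, between 20 bases before and 50 bases after the annotated start, was present in 43 of these 56 core genes, or 76.8%, against 25.4% of 27025 genes with a window. The letters CTTTCC, on the gene strand in the same stretch, occurred in 26.8% of core genes and 3.22% of all genes. In the whole window and on either strand, CCGGAAG, the core of an ETS factor motif, occurred in 39.3% against 9.12%, and GGGCGG, the core of an Sp1 motif, in 58.9% against 35.9%. AAGATGGC, the core of a YY1 motif, occurred on either strand in 7.14% against 2.88%, and TATAAA on the gene strand in 8.93% against 8.88%. Annotated starts can lie some bases away from the start used in these cells, which were not mapped. At 24 h the median change was -0.11 for the 43 core genes with such a run and -0.11 for the 13 with a shorter one. At 48 h the medians were -0.08 and 0.05, with no test.

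The windows below show the start regions of the called gene Rpl36a, of Rps27, and of some paralogs and their parents. Rpl7l1 is shown without its parent. Each window is 30 bases long, 5′ to 3′ on the gene strand. Capitals mark the longest pyrimidine run that lies within 20 bases before to 50 bases after the annotated start. Runs outside that stretch are left in lower case even where they are longer, as in the window of Rpl7l1. Both long and short runs occur among parents and among paralogs. Rps27, Rpl36a, Rpl10, Rpl39 and Rpl22 have runs of 9, 13, 10, 14 and 4 bases. The paralogs Rps27l, Rpl36al and Rpl22l1 have runs of 9, 10 and 10, and Rpl10l, Rpl39l and Rpl7l1 have runs of 5, 7 and 3. Counted from the annotated start, the runs of Rpl36a, Rpl36al, Rpl10 and Rpl39 begin at bases 28, 29, 41 and 37, so they do not lie at that start. The other runs printed begin between base -19, in Rpl7l1, and base 2, in Rpl22l1. The runs of Rpl10 and Rpl39 reach the end of the stretch, 50 bases after the annotated start, so they may go on beyond it. All are on GRCm38.p6, from RefSeq.
Rps27, chr3:90213632-90213661, minus strand: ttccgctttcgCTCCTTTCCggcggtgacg
Rps27l, chr9:66946063-66946092, plus strand: actcctctccaCTCCTCCCCgccgcctcta
Rpl36a, chrX:134585672-134585701, plus strand: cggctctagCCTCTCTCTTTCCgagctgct
Rpl36al, chr12:69184020-69184049, minus strand: gctctgttcgTCCCTTTCCTgttcggcgcg
Rpl22, chr4:152325697-152325726, plus strand: tcccgacagccgaCTTCgccctgggaaaag
Rpl22l1, chr3:28805499-28805528, plus strand: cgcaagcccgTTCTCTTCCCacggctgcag
Rpl10, chrX:74270836-74270865, plus strand: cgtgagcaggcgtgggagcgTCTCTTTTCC
Rpl10l, chr12:66284395-66284424, minus strand: aacagaaatttggCCTCCattttgcggctg
Rpl39, chrX:37085173-37085202, minus strand: gttcttccggtcccggCCTTTCTCTTCTCC
Rpl39l, chr16:10170209-10170238, plus strand: ctagctcccaggCCTTTCCggatttccggt
Rpl7l1, chr17:46782660-46782689, minus strand: gcctctctaccccgCCCggtgaggctgcgc

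None of the paralogs was called. Over all rows 1.13% were called at 24 h and 7.69% at 48 h, so no call among 8 genes is no result about them. A paralog is a second, related copy of a parent gene, often used in one tissue. How alike the proteins of each pair are was not measured here. The 8 include Rps4y2, the row that RefSeq calls Rps4l and annotates as a transcribed pseudogene. Of the 8, 3 changed by more than 0.5 at each time, against 2 and 3 of the 77 core genes. Over all rows 8.09% did so at 24 h and 19.7% at 48 h. The median change of the 8 was -0.31 at 24 h and -0.14 at 48 h, against -0.11 and -0.08 for core genes. In 5 of 8 pairs the paralog stood lower than its parent at 24 h, and in 5 of 8 at 48 h, with median differences of -0.29 and -0.31. In the other pairs, those of Rpl36al, Rpl3l and Rps4y2, it stood higher at both times. The 5 include the pair of Rps27l, which stood at -0.17 and 0.06 beside 1.75 and 2.42 for its parent Rps27, which was not called. No test of the pairs was made.

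The lowest paralog at 48 h was Rpl7l1. It had a 24 h change of -0.45 and a 48 h change of -0.92 in the authors' deposited table, when its parent Rpl7 stood at -0.24 and -0.34. Its posterior probability at 48 h was 0.244 in the authors' deposited table. Of 407 other rows with as large a fall and a posterior probability 218 were called.

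Rpl22l1, which the Rpl22 protein is known in mouse to hold down, had changes of -0.56 and -0.78 in the authors' deposited table, with posterior probabilities of 0.0665 and 0.692. Its second statistic at 48 h, 0.0959 in the authors' deposited table, was the lowest of the paralogs. Rpl22 had changes of -0.20 and -0.17 in the authors' deposited table. In the stretch searched, Rpl22l1 has a run of 10 pyrimidines and Rpl22 one of 4.

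Rpl10l and Rpl39l are autosomal counterparts of the X-linked Rpl10 and Rpl39 and are known for their use in the testis. Rpl10l had changes of -0.61 and -0.68 in the authors' deposited table, while Rpl10 stood at -0.08 and 0.17. Rpl39l had a 24 h change of -0.87 and a 48 h change of -0.28 in the authors' deposited table, and Rpl39 at -0.33 and -0.22. The 24 h change of Rpl39l was the lowest of all members, yet its posterior probability there was 2.7e-27 in the authors' deposited table. Posterior probabilities below 1e-10 occur in 367 rows at 24 h and 415 at 48 h, and no header says what sets them apart.

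Rpl3l, a striated muscle form of Rpl3, was among those rows at both times, with changes of 0.29 and 0.35 in the authors' deposited table. Its parent Rpl3 stood at -0.15 and -0.23. Rpl36al encodes nearly the same protein as Rpl36a, and where Rpl36a fell at 48 h, Rpl36al had changes of -0.05 and 0.04 in the authors' deposited table. Rps27l, known as a target of p53, had changes of -0.17 and 0.06 in the authors' deposited table, which is a difference of -1.92 and -2.36 from Rps27. Rps4y2, annotated in RefSeq as a transcribed pseudogene, had changes of 0.06 and 0.01 in the authors' deposited table, beside -0.18 and -0.24 for the X-linked Rps4x. The counting rule for reads that match several near copies is not known here.

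**Figure D4:**
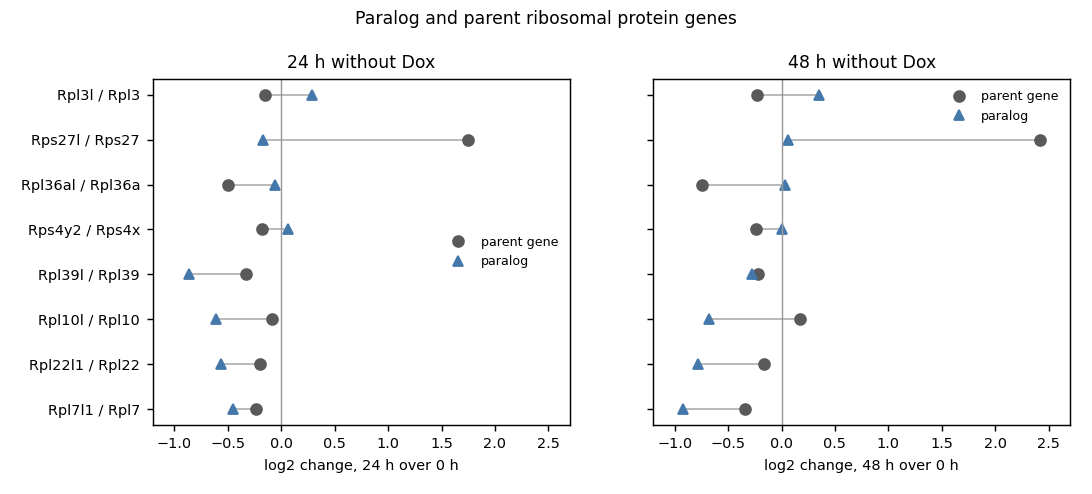
Log2 change over 0 h (horizontal axis) of 8 paralogs (blue triangles) and their parent genes (grey circles) at 24 h (left) and 48 h (right), each pair joined by a line. The paralog lies left of its parent in 5 of 8 pairs at each time, and the widest gap is that of Rps27l and Rps27, a difference of -2.36 at 48 h.

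Rows with a pseudogene name and Rps19bp1 were described apart. Rplp2-ps1, annotated as a transcribed pseudogene, had a 24 h change of 0.34 and a 48 h change of -0.68 in the authors' deposited table, with a posterior probability of 0.888 at 48 h, just short of a call. Its step of -1.01 from 24 h to 48 h was the largest of any member. Rpl34-ps1, which RefSeq annotates as protein coding despite its name, stood at -0.28 and -0.03, and Rps19bp1 at 0.18 and 0.16, in the authors' deposited table.

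Core genes spanned a median of 3175 bases, from 982 to 11774, against 23200.5 over 11420 rows matched by symbol. Across the 77 core genes Spearman's rho between span and change was 0.21 at 24 h and 0.146 at 48 h, a description over genes that share the same libraries. The 30 core genes with a snoRNA gene inside had medians of -0.11 at 24 h and -0.11 at 48 h, and the 47 without one -0.12 and -0.07. The 4 X-linked core genes, Rpl10, Rpl36a, Rpl39 and Rps4x, were all below 0 at 24 h, with a median of -0.26 against -0.11 for 73 autosomal ones. Of the 73 autosomal genes 62 were also below 0 at 24 h. At 48 h the median of the 4 X-linked genes was -0.23 against -0.08, and Rpl10 was above 0. The difference between X-linked and autosomal genes was not tested.

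Genes that make or serve the ribosome were compared by lists. Over all rows 1.13% were called at 24 h and 7.69% at 48 h. Lists of 14 to 19 genes are short beside these shares, so 0 called in those of this paragraph is no result about them. Other TOP genes, 19 in number and elongation factors among them, had a median of 0.01 at 24 h and 0.05 at 48 h, with 0 called at either time. At 48 h they ranged from Tpt1 at -0.31 to the chaperonin gene Cct4 at 0.44 in the authors' deposited table. Larp1 and mTOR pathway genes had a median of 0.08 at 24 h and 0.01 at 48 h, with 0 of 14 and 0 of 13 called, and ran at 48 h from Mlst8 at -0.43 to Tsc1 at 0.35 in the authors' deposited table. For RNA polymerase I, which transcribes the ribosomal RNA genes, the median of 14 genes was -0.01 and then -0.08, with 0 called and a 48 h range from Cd3eap at -0.54 to Taf1b at 0.13 in the authors' deposited table.

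Ribosome assembly factors were read against the 3.97% of all rows that fell and the 3.72% that rose at 48 h, and no test of that difference was made. At 24 h 0 were called. The medians were 0.04 for the 41 genes of the small subunit list and 0.12 for 41 factors of the large subunit. Both lay on the other side of 0 from the ribosomal proteins. The small subunit list also counts Wdr12, a large subunit factor, at -0.15 and -0.41 in the authors' deposited table. At 48 h the medians were -0.07 and -0.09. Of 40 genes of the small subunit list with a posterior probability 3 fell. In the authors' deposited table Tbl3 fell by 0.83, Wdr46 fell by 0.67 and Utp14a fell by 0.58, all parts of the processome that cuts the small subunit RNA precursor. Tbl3 carries the Dox mark and passed the second statistic at 0.0237 in the authors' deposited table. Of 39 large subunit factors 1, the helicase gene Ddx56, fell, by 0.55 in the authors' deposited table. Of 14 snoRNP proteins 1, the helicase gene Ruvbl2, rose, by 0.58 in the authors' deposited table. Translation initiation factors had medians of 0.04 and 0.02 over 32 genes with 0 called, from Eif2s3x at -0.45 to Eif2s2 at 0.31 at 48 h in the authors' deposited table. The 10 ribosome quality control genes had medians of 0.12 and 0.14 with 0 called, from Hbs1l at -0.55 to Gtpbp2 at 0.40 at 48 h in the authors' deposited table.

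Mitochondrial ribosomal protein genes, which build the separate ribosome of the mitochondrion, gave a comparison. Their median over 76 genes was -0.06 at 24 h and -0.13 at 48 h, where that of the cytosolic members was -0.12 and -0.08. At 48 h 5 of 71 were called as fallen, or 7.04%, where 3.97% of all rows and 2 of 87 cytosolic members were, with no test of these differences. Mrpl17 fell by 1.13 and Mrps2 by 0.83 in the authors' deposited table, and both passed the second statistic. The log2 difference of 48 h over 24 h was below 0 in 52 of 76 mitochondrial genes and in 36 of 88 cytosolic members, with no test of this difference.

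**Figure D5:**
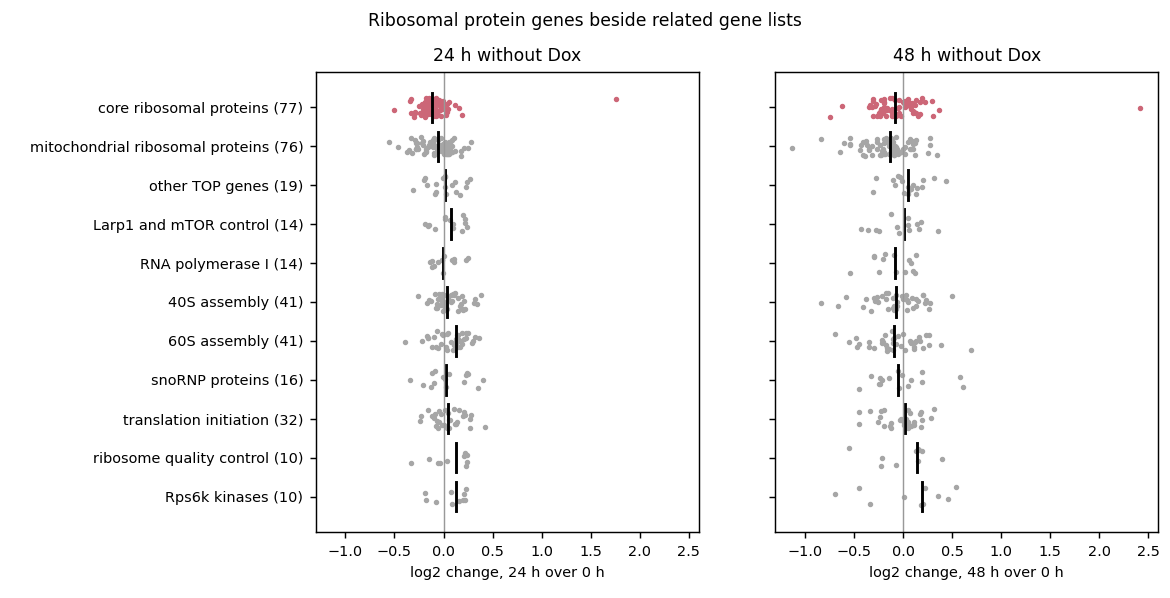
Log2 change over 0 h (horizontal axis) at 24 h (left) and 48 h (right) of 77 core ribosomal protein genes (red) and related gene lists (grey), 1 point per gene with its number of genes in brackets and a black bar at the median. At 24 h the core ribosomal protein median of -0.11 lies below 0 while that of 60S assembly factors lies at 0.12, and at 48 h the medians of core, mitochondrial and both assembly lists lie between -0.13 and -0.07.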

How the data were processed

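The authors sequenced polyA-selected RNA and deposited 1 table of their own comparisons, with no values per library. Per the submitters' processing notes, tools of the series include RSEM, STAR, bedtools 2.20.1, SAMtools 1.3, DESeq 1.22.1 and BWA 0.7.12-r1039, and builds mm10 and mm9, with no role given. Per the file headers, the authors gave for each time a posterior probability of differential expression (a fraction from 0 to 1), a log2 fold change, a Dox mark and an adjusted p-value.

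The deposited log2 changes were multiplied by -1. Calls used a posterior probability of at least 0.95. No model was fitted, and depth is unknown. Members and lists were chosen with earlier results of these data known. Named genes were called members, the 8 highest and lowest at each time, paralogs with parents, members without a posterior probability, members named for their roles, and called or extreme members of lists. Rpl15, Rps3, Rpl27a, Rpl35a and Rpl37a fall outside this rule and were chosen after their values were seen. Symbols matched RefSeq (GRCm38.p6) for 88 of 88 members. Coordinates belong to the printed windows only. Summaries used pandas 2.3.3 and scipy 1.17.1. Their code was checked on the deposited changes shuffled over rows, with a known shift added to some, which checks the arithmetic only. Some genes are not reported here by name.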

Additional observations from a re-analysis of the deposited data

How the results depend on the processing

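Counts of called members and list medians were recomputed under other choices. At 24 h the count stayed at 0 under a posterior probability of 0.99 or 0.90, the second statistic, a minimum of 1.5-fold, without marked genes and over core genes alone. At 48 h the count of 2 became 1 at a posterior probability of 0.99, which leaves Rpl23a, and 0 by the second statistic at 0.05. The second statistic's test is not stated, and the cause was not tested. The other settings left it at 2. Medians over members moved by less than 0.05 on the log2 scale under each setting tried. The difference of large minus small subunit, 0.00092 at 24 h by medians, became -0.083 by means, and at 48 h it went from -0.077 to -0.17 by means. Without Rps27, an alternative added after the data were seen, the means differed by -0.028 and -0.093, so the value by means at 24 h stayed below 0 without that gene and moved toward 0 at both times. No paired analysis was possible because the table has no values per library, and leaving out replicates could not be done for the same reason. The unknown depth limits what can be said of small changes.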

Other observations

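The S6 kinase genes, some of whose products phosphorylate Rps6 among other substrates, are left out of the ribosomal protein genes by name. Of 9 with a posterior probability at 48 h 1 was called, where 7.69% of all rows were, so the count is no result about the kinases. In the authors' deposited table Rps6ka2 fell by 0.69 at 48 h and did not pass the second statistic, at 0.0891. Rps6ka3 stood highest at 48 h, at 0.54 in the authors' deposited table, and was not called. Over all 10 kinase genes the medians were 0.12 and 0.19.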
